A study of Mus musculus with 72 samples.

Results

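The probes ILMN_2616226, ILMN_2739760 and ILMN_2789294 measure the mouse transcripts Dbp, Prelp and Tmem25, and they are 3 of the 45255 probes with complete rows on the array. They were chosen by their values: each read lower in mice with abdominal sepsis than in sham-operated mice, across the organs sampled. Differences between septic and sham mice are therefore given below as a description, with no test. All arrays came from female C57Bl/6J mice, and RNA was taken 28 hours after surgery. The MSC arm had cecal ligation and puncture (CLP), in which gut contents leak into the abdomen, and received 250000 mesenchymal stem cells (MSCs) in 100 µL through a canula 6 hours after surgery. The cells were cultured from male C57Bl/6J mice and used between passages 8 and 11, so host and infused cells share a strain. The CLP arm had the same injury and saline at the same time. The sham arm had the operation without the injury, also followed by saline. The study asked which transcripts change as inflammation falls in CLP mice given MSCs.

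The 72 arrays hold 5 livers, 5 lungs, 5 kidneys and 5 hearts per arm, from 15 numbered mice, and 4 spleens per arm with labels of their own. The design text speaks of 4 animals per group, while the labels of 4 organs number 5 mice per arm. The tissue field of many samples differs from the organ in their titles, and organs were taken from the titles. Organ marker lists went with the titles: the liver list averaged 9.66 to 10.74 in livers and at most 8.42 elsewhere, and the lung list 12.65 to 13.22 in lungs and at most 6.79 elsewhere. In the spleen, 2 arrays are placed in different arms by the 2 deposited tables, so spleen differences are given by both tables and without these 2 arrays. CLP mouse 107C stands apart from the other CLP mice, and results that rest on it are given with and without it. The hour of the day at which organs were taken is not given in the sources used here.

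Dbp encodes a transcription factor of the PAR bZIP family whose transcript cycles over the day in most mammalian tissues. The clock proteins Clock and Arntl switch it on through E boxes, and the Dbp protein in turn binds D boxes in its target genes, as do its relatives Tef and Hlf. Prelp encodes a small leucine-rich proteoglycan that links basement membranes to the collagen of connective tissue. Tmem25 encodes a membrane protein of the immunoglobulin superfamily, which in mouse neurons has been tied to the breakdown of an NMDA receptor subunit. CLP is a standard model of polymicrobial sepsis, in which many organs change their transcripts within a day.

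The 250 bases upstream of each start site are shown because the 3 transcripts were each chosen for reading lower in CLP than in sham mice. The sequences are RefSeq's, on mouse build GRCm38.p6, read 5′ to 3′ on the strand of the gene. Capitals mark the letters CCAAT, or ATTGG where CCAAT lies on the other strand.
Dbp, chr7:45704997-45705246, plus strand: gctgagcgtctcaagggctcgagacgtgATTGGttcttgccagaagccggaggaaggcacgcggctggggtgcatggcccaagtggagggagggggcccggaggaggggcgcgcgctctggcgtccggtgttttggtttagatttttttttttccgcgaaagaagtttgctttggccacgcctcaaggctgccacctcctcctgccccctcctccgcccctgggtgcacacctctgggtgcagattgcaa
Prelp, chr1:133921402-133921651, minus strand: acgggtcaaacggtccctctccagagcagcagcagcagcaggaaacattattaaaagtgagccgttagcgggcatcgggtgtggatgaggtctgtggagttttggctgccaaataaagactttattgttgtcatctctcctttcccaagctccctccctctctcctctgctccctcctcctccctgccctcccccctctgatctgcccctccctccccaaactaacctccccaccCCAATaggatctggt
Tmem25, chr9:44799248-44799497, minus strand: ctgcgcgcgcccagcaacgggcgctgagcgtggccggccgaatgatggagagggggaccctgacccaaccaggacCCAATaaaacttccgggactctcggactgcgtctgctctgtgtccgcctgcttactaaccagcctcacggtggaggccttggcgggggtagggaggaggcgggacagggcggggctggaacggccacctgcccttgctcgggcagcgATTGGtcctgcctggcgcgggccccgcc
CCAAT was found 222 bases before the start of Dbp, 15 bases before that of Prelp, and 175 and 28 bases before that of Tmem25. It occurs in 33.8% of the 32851 windows of this length, and it was picked after these sequences had been read. The E box CACGTG, the D box TTANGTAA and the nuclear receptor motif AGGTCA were searched on both strands and have 0 matches in the 3 windows. They occur in 6.02%, 2.06% and 14% of all windows, and their absence says only that these letters are not in these 250 bases. CCAAT does not overlap any of these 3 motifs. The G and C share was 62.4% for Dbp, 55.6% for Prelp and 69.6% for Tmem25, against a median of 52.4% over all windows.

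Values are the deposited log2 intensities, so a difference of 1 is a 2-fold change, and levels are set against each other only within a probe. In each organ, testing was limited to probes above 6 log2 in 4 or more spleens, or in 5 or more arrays of another organ. Dbp and Prelp passed in all 5 organs. Tmem25 passed in liver, lung, kidney and heart, and in the spleen 1 of its 12 arrays exceeded 6. RNA came from whole organs, so fewer cells of a type and less RNA per cell cannot be told apart in any value below.

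In liver, Dbp read 10.03, 9.19, 9.72, 9.05 and 9.28 in the MSC mice 100M, 101M, 16M, 44M and 61M. It read 9.59, 8.76, 7.60, 8.04 and 7.56 in the CLP mice 107C, 24C, 34C, 35C and 37C. It read 12.43, 11.74, 12.81, 12.82 and 12.30 in the sham mice 21S, 22S, 76S, 77S and 78S. Both injured arms lay wholly below sham, and mouse 107C was the highest of the CLP livers. The arm means were 9.46 ± 0.41 in MSC, 8.31 ± 0.86 in CLP and 12.42 ± 0.44 in sham livers (SD, n = 5 each), and CLP minus sham was -4.11.

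In lung, Dbp read 11.51, 10.80, 10.23, 10.55 and 11.71 in MSC mice, 11.80, 10.37, 11.02, 10.84 and 11.48 in CLP mice, and 13.27, 12.85, 13.20, 12.80 and 12.27 in sham mice, with the mice in the order above here and below. The MSC and CLP lungs covered the same range and all lay below sham. In kidney, Dbp read 10.16, 10.54, 9.60, 10.69 and 10.83 in MSC mice, 10.97, 10.49, 10.52, 10.36 and 10.97 in CLP mice, and 12.54, 12.27, 12.41, 12.29 and 11.69 in sham mice. MSC and CLP kidneys overlapped, and all lay below sham. In heart, Dbp read 11.88, 10.89, 10.32, 10.99 and 10.86 in MSC mice, 11.13, 10.60, 10.45, 9.51 and 10.88 in CLP mice, and 12.83, 12.36, 12.89, 12.62 and 12.12 in sham mice. Again no injured heart reached the sham range. CLP minus sham was -1.78 in lung, -1.57 in kidney and -2.05 in heart.

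In spleen, by the table header, Dbp read 11.01, 9.11, 11.00 and 9.84 in MSC spleens, 9.66, 9.96, 10.96 and 10.74 in CLP spleens, and 11.63, 11.67, 11.96 and 11.84 in sham spleens. The sham spleens lay close together, while each injured arm spread over more than 1 log2. CLP minus sham was -1.45 there. Over the 5 organs the CLP and sham arms of Dbp did not overlap, in spleen only under the arms of the header: by the sample table a spleen at 9.84 is a sham spleen, inside the CLP range. Among all probes tested, 11.6% in spleen, 10.2% in liver, 8.5% in lung, 7.61% in kidney and 3.99% in heart had CLP wholly below sham. By the test behind the choice, 13.5% of spleen, 43.8% of liver, 32.4% of lung, 41% of kidney and 17.5% of heart probes differed between CLP and sham in either direction at an adjusted p below 0.05.

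Prelp in liver read 11.21, 11.04, 10.54, 10.53 and 10.79 in MSC mice, 11.03, 9.37, 9.52, 8.43 and 9.01 in CLP mice, and 10.88, 11.03, 11.33, 11.31 and 11.35 in sham mice. The MSC livers lay among or just below the sham livers. Of the CLP livers, 107C lay inside the sham range and the other 4 lay at least 1 log2 below it. In lung, Prelp read 13.07, 12.53, 12.78, 12.63 and 13.19 in MSC mice, 12.99, 11.97, 11.63, 11.39 and 12.08 in CLP mice, and 13.17, 13.63, 13.47, 13.44 and 13.55 in sham mice. Lung 107C again stood above the other CLP lungs, here below every sham lung.

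In kidney, Prelp read 9.96, 9.57, 9.47, 8.85 and 10.11 in MSC mice, 9.86, 8.45, 8.46, 7.54 and 8.09 in CLP mice, and 10.28, 10.03, 10.40, 10.46 and 10.27 in sham mice. The MSC kidneys lay above the CLP kidneys other than 107C, and 4 of 5 lay below all sham kidneys. In heart, Prelp read 11.82, 11.82, 11.98, 11.39 and 12.27 in MSC mice, 12.03, 10.92, 11.27, 9.90 and 10.88 in CLP mice, and 12.25, 12.54, 12.06, 12.09 and 11.76 in sham mice. The MSC hearts overlapped the sham hearts, and so did the CLP heart of 107C. In spleen, Prelp read 10.05, 7.77, 10.19 and 8.21 in MSC spleens, 7.5, 8.32, 10.79 and 9.37 in CLP spleens, and 11.34, 11.25, 11.26 and 11.30 in sham spleens.

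For Prelp, CLP minus sham was -2.29 in spleen, -1.81 in kidney, -1.71 in liver, -1.44 in lung and -1.14 in heart. CLP lay wholly below sham in lung, in kidney and, by the header, in spleen, and overlapped it in liver and heart, in both cases through mouse 107C. The sham spread was small, with an SD of 0.04 in spleen and of 0.17 to 0.29 in the other organs. The CLP spread was larger in every organ, with an SD of 0.61 in lung, 0.77 in heart, 0.86 in kidney, 0.97 in liver and 1.42 in spleen.

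Tmem25 had the widest range of the 3 probes in liver. It read 9.14, 8.66, 7.84, 7 and 9.27 in MSC livers, 10.14, 4.74, 4.38, 5.60 and 5.17 in CLP livers, and 10.87, 10.54, 11.06, 10.83 and 10.68 in sham livers. Of the CLP livers, 4 lay below 6 log2, near the median probe of these arrays at 5.49, and 107C lay at 10.14, just below sham. The CLP mean of 6.00 ± 2.35 (SD, n = 5) therefore describes no single CLP liver. The MSC mean was 8.38 ± 0.96 and the sham mean 10.80 ± 0.20 (SD, n = 5 each).

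In kidney, Tmem25 read 10.28, 9.48, 8.13, 8.76 and 9.92 in MSC mice, 10.19, 7.07, 8.25, 7.46 and 7.75 in CLP mice, and 10.74, 10.36, 10.47, 10.79 and 10.52 in sham mice. The order of the arms was that of the liver, with 107C close to sham. In heart, Tmem25 read 8.31, 7.60, 7.43, 8.16 and 7.70 in MSC mice, 7.26, 6.33, 6.96, 7.08 and 6.29 in CLP mice, and 9.06, 8.45, 9.08, 9.08 and 7.56 in sham mice. Every MSC heart lay above every CLP heart. In lung, Tmem25 read 6.43, 6.22, 6.58, 6.35 and 6.78 in MSC mice, 6.50, 5.86, 6.45, 5.31 and 5.94 in CLP mice, and 6.88, 6.57, 6.64, 6.67 and 7 in sham mice.

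CLP minus sham for Tmem25 was -4.79 in liver, -2.43 in kidney, -1.86 in heart and -0.74 in lung, and the 2 arms did not overlap in these 4 organs. In spleen, where it was not tested, Tmem25 read 5.38, 4.06, 5.34 and 5.05 in MSC spleens, 4.84, 4.96, 5.72 and 5.32 in CLP spleens, and 6.03, 5.74, 5.96 and 5.52 in sham spleens. These dim values leave little room for a measured difference. In the mean of the 4 other organs per mouse, CLP minus sham was -2.38 for Dbp, -1.52 for Prelp and -2.46 for Tmem25. CLP lay wholly below sham for all 3 probes in that mean, as it did for 9.13% of all 6826 probes tested there, of which 50.6% differed in either direction.

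**Figure D1:**
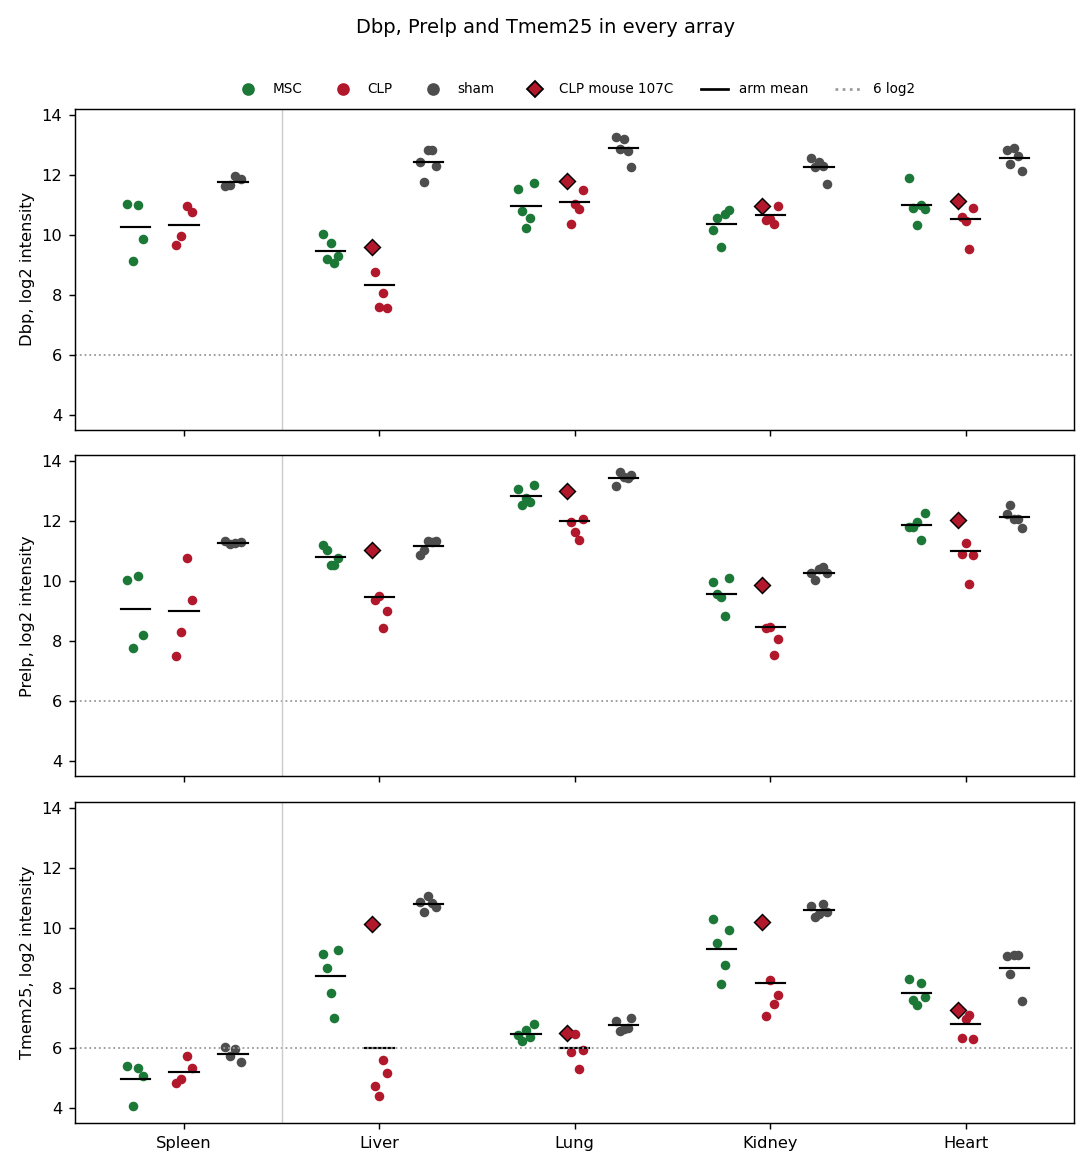
Log2 intensity of Dbp, Prelp and Tmem25 (vertical axes) in each of 72 arrays, by organ, with MSC left of CLP and sham. Points are arrays, bars are arm means, diamonds are CLP mouse 107C and the dotted line is 6 log2. The Tmem25 livers of the CLP arm sit between 4.38 and 5.60 except 107C at 10.14.

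In sham mice the 3 transcripts had different orders of level between organs, compared within each probe by limma on pairs of organs with the mouse as a block. Prelp was highest in lung at 13.45 ± 0.17, then heart at 12.14 ± 0.29, liver at 11.18 ± 0.21 and kidney at 10.29 ± 0.17 (SD, n = 5 each). All 6 pairs of organs differed, with a largest adjusted p of 3.28e-05. Lung exceeded heart by 1.31 log2 (SE 0.142), a 2.48-fold difference, and exceeded kidney by 3.17. Pairs of organs differ widely in general: 73% of all probes tested differed between liver and lung, 62.2% between liver and kidney, 69.9% between liver and heart, 67.3% between lung and kidney, 61.4% between lung and heart and 63.5% between kidney and heart.

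Tmem25 was highest in sham liver and kidney, which did not differ beyond their spread (liver minus kidney 0.22 log2, SE 0.199, adjusted p = 0.34 by limma). Heart followed at 8.65 ± 0.67 and lung at 6.75 ± 0.18 (SD, n = 5 each). The other 5 pairs differed, and liver exceeded lung by 4.05 log2, a 16.5-fold difference. Dbp was nearly level across organs, from 12.88 ± 0.40 in lung through 12.56 ± 0.33 in heart and 12.42 ± 0.44 in liver to 12.24 ± 0.33 in kidney (SD, n = 5 each). Liver was 0.46 below lung (adjusted p = 0.00912 by limma) and lung 0.64 above kidney (adjusted p = 0.000873). The other 4 pairs missed the threshold, liver against heart by 0.14, liver against kidney by 0.18, and lung and kidney each against heart by 0.32. Of these, 2 passed without sham mouse 22S (liver against kidney, adjusted p = 0.0346, and kidney against heart, 0.0264) and 1 without 78S (lung against heart, 0.0463). The liver and lung difference of Dbp lost its call without sham mouse 21S (adjusted p = 0.0706) or 22S (adjusted p = 0.0661), and without the mouse block (adjusted p = 0.0668).

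Dbp stayed low in CLP mice given MSCs. By limma, MSC minus sham was -2.97 in liver (SE 0.342, adjusted p = 2.85e-05), where Dbp was 7.82-fold lower. It was -1.92 in lung (SE 0.295, adjusted p = 0.000471) and -1.87 in kidney (SE 0.221, adjusted p = 0.000201), where Dbp was 3.78-fold and 3.66-fold lower. It was -1.57 in heart (SE 0.298, adjusted p = 0.00983), where Dbp was 2.97-fold lower. In each of these organs 5 of 5 MSC mice lay below all 5 sham mice, and the call held with each of the 15 mice left out in turn. MSC minus sham shares its sham arrays with the contrast that chose the probes.

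Of the 3 probes, 1 fell in lung, kidney and heart by this test and 2 fell in liver. Among all probes tested, 9.13% fell in liver, 4.91% in lung, 3.27% in kidney, 0.85% in heart and 3.68% in spleen. MSC lay wholly below sham for 9.5% of all probes in liver, 7.08% in lung, 6.43% in kidney, 2.18% in heart and 11.8% in spleen. In the 4-organ mean per mouse, Dbp was 10.44 ± 0.36 in MSC and 12.53 ± 0.31 in sham mice (SD, n = 5 each), a difference of -2.08 (SE 0.212, adjusted p = 2.28e-05 by limma). There 4.64% of all probes fell, and MSC lay wholly below sham for 6.69%.

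Tmem25 was lower in MSC than in sham livers (difference -2.42, SE 0.80, adjusted p = 0.0418 by limma), and in 5 of 5 MSC livers it lay below all sham livers. MSC also lay wholly below sham in kidney, where the difference of -1.26 missed the threshold (adjusted p = 0.127). The differences of -0.81 in heart (adjusted p = 0.185) and -0.28 in lung (adjusted p = 0.40) missed it too. In the 4-organ mean Tmem25 was 8.00 ± 0.48 in MSC and 9.19 ± 0.21 in sham mice (SD, n = 5 each), and the difference of -1.19 passed (SE 0.363, adjusted p = 0.043). These calls stand near the threshold: the liver call was lost without any one sham mouse or MSC mouse 101M, 16M or 44M (adjusted p from 0.0615 to 0.111), and that of the mean without any one of the same 8 mice or CLP mouse 34C (0.0521 to 0.112). The heart difference passed without sham mouse 78S (adjusted p = 0.0174), whose heart read high on the T-cell list (10.72).

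Prelp in MSC mice did not pass against sham in any organ. MSC minus sham was -0.36 in liver (adjusted p = 0.49 by limma), -0.61 in lung (0.10), -0.69 in kidney (0.21) and -0.29 in heart (0.72). In the 4-organ mean it was -0.49 (SE 0.269, adjusted p = 0.25), although Prelp lay below all sham mice in 5 of 5 MSC mice there. Without CLP mouse 107C, which belongs to neither of these arms but adds to the shared spread, the lung, kidney and mean differences passed, with adjusted p of 0.012, 0.0432 and 0.0382. Missing the threshold does not show that MSC and sham mice were alike.

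**Figure D2:**
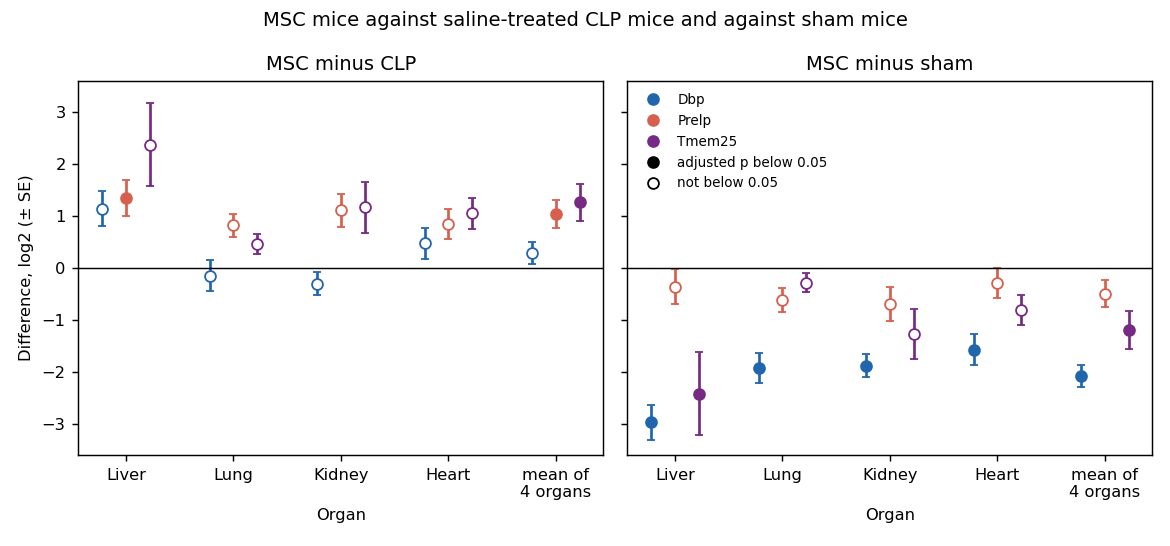
Difference between arms (vertical axis, log2, with its SE) for Dbp, Prelp and Tmem25 by organ and in the mean of 4 organs, as MSC minus CLP on the left and MSC minus sham on the right, with 5 mice per arm. Filled points have an adjusted p below 0.05 by limma. Dbp lies between -1.57 and -2.97 against sham in the 4 organs, while against CLP it lies between -0.30 and 1.15.

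Set against CLP mice given saline, MSC mice had more Prelp and Tmem25 in the mean of 4 organs, and Dbp passed in no organ. This comparison shares its CLP arrays with the contrast that chose the probes, so a low CLP arm was selected for. MSC minus CLP for Prelp was 1.35 in liver (SE 0.337, adjusted p = 0.042 by limma), a 2.55-fold rise. The differences of 0.83 in lung (SE 0.225, adjusted p = 0.0708), 1.11 in kidney (SE 0.325, adjusted p = 0.0868) and 0.86 in heart (SE 0.292, adjusted p = 0.159) missed the threshold. In the 4-organ mean Prelp was 11.28 ± 0.29 in MSC and 10.24 ± 0.78 in CLP mice (SD, n = 5 each), and the difference of 1.04 passed (SE 0.269, adjusted p = 0.0402).

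For Tmem25, MSC minus CLP was 2.38 in liver (SE 0.80, adjusted p = 0.073 by limma), 1.17 in kidney (adjusted p = 0.144), 1.05 in heart (SE 0.294, adjusted p = 0.101) and 0.46 in lung (adjusted p = 0.137). None of these passed alone. In the 4-organ mean Tmem25 was 8.00 ± 0.48 in MSC and 6.74 ± 1.01 in CLP mice (SD, n = 5 each), and the difference of 1.26 passed (SE 0.363, adjusted p = 0.0412). By the second deposited table Tmem25 was too dim in lung to be tested, so its 4-organ mean has no test there. For Dbp, MSC minus CLP was 1.15 in liver (SE 0.342, adjusted p = 0.053), -0.14 in lung (0.785), -0.30 in kidney (0.379) and 0.48 in heart (0.408). Its 4-organ difference was 0.29 (SE 0.212, adjusted p = 0.318), with 10.44 ± 0.36 in MSC and 10.15 ± 0.45 in CLP mice (SD, n = 5 each).

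Thus 1 of the 3 probes rose in liver and 2 in the 4-organ mean, where 3.03% and 6.18% of all probes tested rose. In lung and kidney 0% of all probes rose, in heart 0.0113%, and in spleen 0%, while 2261 lung, 2393 kidney, 1536 heart and 428 spleen probes had an unadjusted p below 0.05 in either direction. MSC lay wholly above CLP for Tmem25 in heart alone among the 3 probes and 5 organs. The share of all probes with MSC wholly above CLP was 3.24% in heart, 1.22% in liver, 0.714% in lung, 0.885% in kidney, 0.579% in spleen and 1.39% in the 4-organ mean. The Prelp liver call was lost when any of the other 14 mice was left out (adjusted p from 0.0504 to 0.116). The 4-organ calls of Prelp and Tmem25 were each lost when any of 12 of those 14 was left out (adjusted p from 0.0522 to 0.107 and from 0.0527 to 0.108). Both held without MSC mouse 16M or sham mouse 78S. Tmem25 in heart passed without the heart of 78S (adjusted p = 0.0252).

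CLP mouse 107C gave the highest CLP value in 12 of 12 combinations of the 3 probes and the 4 organs, and its kidney value of Dbp matched that of 37C to 2 decimals. Its 4-organ mean of Tmem25 was 8.52, against 6.00 to 6.51 in the other 4 CLP mice. The choice to look at the results without this mouse was made after its values had been seen. Without it, Prelp was higher in MSC than in the remaining CLP mice by 1.74 in liver (adjusted p = 6.96e-05 by limma), 1.07 in lung (0.000473), 1.45 in kidney (0.000642) and 1.11 in heart (0.0151). Tmem25 was higher by 3.41 in liver (adjusted p = 3.62e-05), 0.58 in lung (0.0267), 1.68 in kidney (0.00211) and 1.17 in heart (0.0329). Dbp was higher by 1.47 in liver (adjusted p = 0.00124), while its differences of 0.03 in lung (0.95), -0.22 in kidney (0.475) and 0.63 in heart (0.222) did not pass.

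Far more of all probes rose without 107C as well: 14.3% in liver, 12.2% in lung, 16.7% in kidney, 3.63% in heart and 19.4% in the 4-organ mean. In that mean all 3 probes passed, at 0.48 for Dbp (SE 0.18, adjusted p = 0.0424 by limma), 1.34 for Prelp (SE 0.167, adjusted p = 5.19e-05) and 1.71 for Tmem25 (SE 0.193, adjusted p = 2.52e-05). Against sham and without 107C, Dbp and Tmem25 fell in liver, Dbp, Prelp and Tmem25 fell in kidney, and Dbp and Prelp fell in lung. All probes fell there at shares of 12%, 7.5% and 7%. In heart Dbp alone fell, beside 1% of all probes, and in the 4-organ mean all 3 fell, beside 8.71%.

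Some marker lists of 107C stood apart too, though in any list some mice lie outside the range of the rest. Its lung list lay within the range of the other CLP mice in 4 of 4 organs, and its heart and T-cell lists in 3. Its clock-gene list, which includes Dbp, lay within that range in 2 organs. That list lay below it in kidney (7.40 against 7.82 to 8.19) and heart (7.68 against 7.95 to 8.27). Its macrophage list (2 of 3 genes with a probe: mean log2) lay above the other CLP mice in 4 of 4 organs, for example 9.73 in liver against 8.42 to 9. Its neutrophil list (6 of 7 genes) lay below them in 3 organs, with 9.04 in liver against 9.43 to 9.97, and still above the sham livers at 7.18 to 8.81. Its list of injury and acute-phase genes (7 of 7 genes) lay below them in 3 organs, with 11.01 in kidney against 11.63 to 13.10, and above the sham kidneys at 7.83 to 8.73. Its heart also read 9.84 on the list of B-cell and red-pulp genes and 8.43 on the T-cell list, above the other CLP hearts at 7.59 to 8.92 and 6.28 to 6.84. The part of these differences in the Dbp, Prelp and Tmem25 values was not tested.

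**Figure D3:**
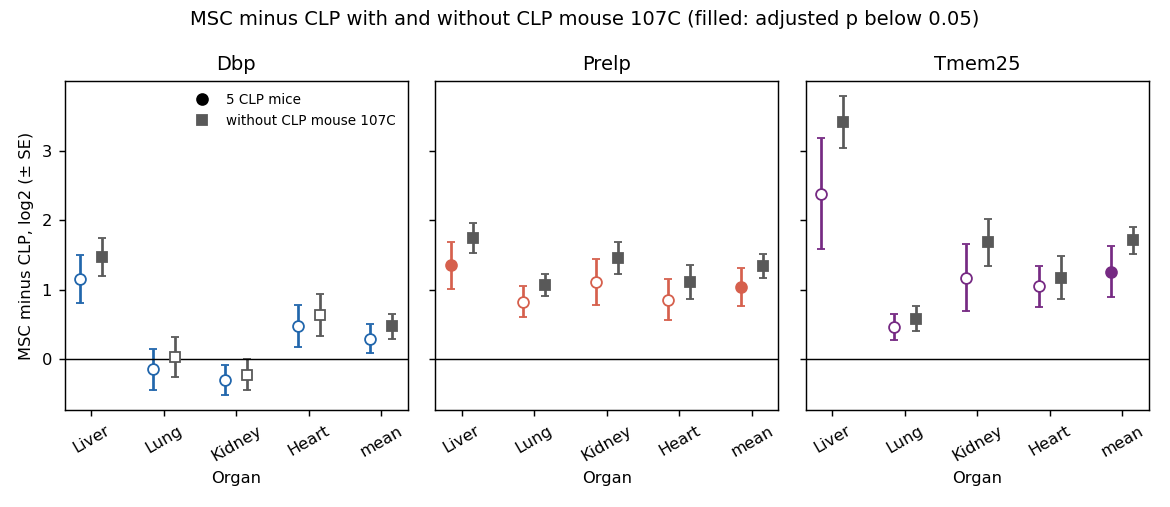
MSC minus CLP difference (vertical axis, log2, with its SE) of Dbp, Prelp and Tmem25 by organ and in the mean of 4 organs. Coloured circles use all 5 CLP mice and grey squares leave out CLP mouse 107C, with filled symbols for an adjusted p below 0.05 by limma. The Tmem25 liver difference is 2.38 with the mouse and 3.41 without it.

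Lists of neutrophil and injury genes read higher on average in both injured arms than in sham. The neutrophil list averaged 11.84 to 12.46 in MSC lungs and 11.86 to 12.98 in CLP lungs, against 10.33 to 11.03 in sham lungs. In liver it averaged 9.15 to 9.68 in MSC and 9.04 to 9.97 in CLP mice, against 7.18 to 8.81 in sham mice. The injury list averaged 12.47 to 12.94 in MSC and 12.75 to 13.35 in CLP livers, against 10.27 to 11.25 in sham livers. Liver marker genes themselves averaged 9.82 to 10.41 in MSC and 9.66 to 10.27 in CLP livers, against 10.51 to 10.74 in sham livers. The macrophage list (2 of 3 genes) averaged 9.41 in MSC, 8.95 in CLP and 9.98 in sham livers. It averaged 9.45 in MSC, 9.15 in CLP and 9.43 in sham lungs, 8.67, 8.21 and 8.56 in kidneys and 10.07, 9.11 and 9.44 in hearts in the same order. It was lowest in CLP in each organ, as Prelp and Tmem25 were. Unlike them it was highest in MSC in heart (SD 0.46 in MSC and 0.26 in sham hearts). In lung and kidney its MSC and sham means were level within their spread (SD 0.27 and 0.11 in lungs, 0.30 and 0.21 in kidneys). The lung list in lungs (12.91, 12.80 and 13.16) and the kidney list in kidneys (11.82, 11.71 and 12.36) were lowest in CLP too. The heart list in hearts was not: it averaged 12.37 in MSC and 12.51 in CLP hearts (SD 0.18 and 0.17). Its CLP mean was level with that of sham hearts (sham SD 0.48). The T-cell list was lowest in MSC in livers (6.33, 6.48 and 6.77), lungs (7.08, 7.41 and 7.97) and hearts (6.54, 6.94 and 7.68), and nearly level in kidneys (6.31, 6.27 and 6.28). The heart means include single high hearts, sham 78S at 10.72 (sham SD 1.77) and CLP 107C at 8.43 (CLP SD 0.87). The part of these shifts in the levels of Dbp, Prelp and Tmem25 was not tested.

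The MSC minus CLP difference of Dbp was not the same in all organs. Its organ by arm F statistic was 7.17 (adjusted p = 0.0165 by limma, mouse as a block, 3 degrees of freedom), with liver at 1.15 and kidney at -0.30 at the ends. For Prelp F was 2.64 (adjusted p = 0.19) and for Tmem25 3.52 (adjusted p = 0.109). Thus 1 of the 3 probes passed, against 11% of all 6826 probes. The Dbp call was lost without any one of MSC mice 100M (adjusted p = 0.0542) and 16M (0.0511) or CLP mice 34C (0.0587), 35C (0.0515) and 37C (0.0844), and with no replicate block (F = 4.37, adjusted p = 0.106). Without 107C the F statistics of Prelp and Tmem25 passed as well, at 4.13 (adjusted p = 0.0413) and 16.5 (adjusted p = 3.28e-05), when 32.4% of all probes did.

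In spleen, MSC minus sham was -1.54 for Dbp (SE 0.41, adjusted p = 0.044 by limma), with Dbp lower in 4 of 4 MSC spleens than in all sham spleens. For Prelp it was -2.23 (adjusted p = 0.066), also with no overlap under the arms of the header. The Dbp call was lost without any 1 of 8 spleens, namely all 4 sham spleens, A2 and B2 of the CLP arm and C2 and D2 of the MSC arm (adjusted p from 0.0522 to 0.117). Prelp passed without any 1 of A, B and D (adjusted p from 0.0293 to 0.0466). MSC minus CLP was -0.09 for Dbp (adjusted p = 1) and 0.06 for Prelp (adjusted p = 1). The labels do not say whether spleens such as E and E2 come from different animals, so these p-values measure only the spread between samples. The arm of 2 spleens is also in doubt. Of the 12 spleen columns, 7 carry the values of another sample in the second table, and 2 of these change arm: the column named D2 of the MSC arm holds the values given there for a sham spleen, and E2 of the sham arm those of an MSC spleen.

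Those 2 columns read 9.84 and 11.67 for Dbp, and 8.21 and 11.25 for Prelp, in the order D2 and E2. By the sample table, the MSC arm would thus hold a spleen at the sham level and the sham arm one at the level of injured spleens. MSC minus sham for Dbp was -0.62 by that table (adjusted p = 0.997) and -1.44 with both spleens left out (adjusted p = 0.196), so the spleen call of Dbp was lost either way. For Prelp it was -0.711 by that table (adjusted p = 0.997), with arms that overlap, and -1.96 with both left out (adjusted p = 0.271). MSC minus CLP was 0.369 for Dbp and 0.822 for Prelp by that table, and 0.0439 and 0.343 with both left out, and none passed. CLP minus sham was -0.987 for Dbp and -1.53 for Prelp by that table, and -1.48 and -2.31 with both left out. Which table names the spleens correctly was not tested, since no other probes of these 2 spleens were examined for it.

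**Figure D4:**
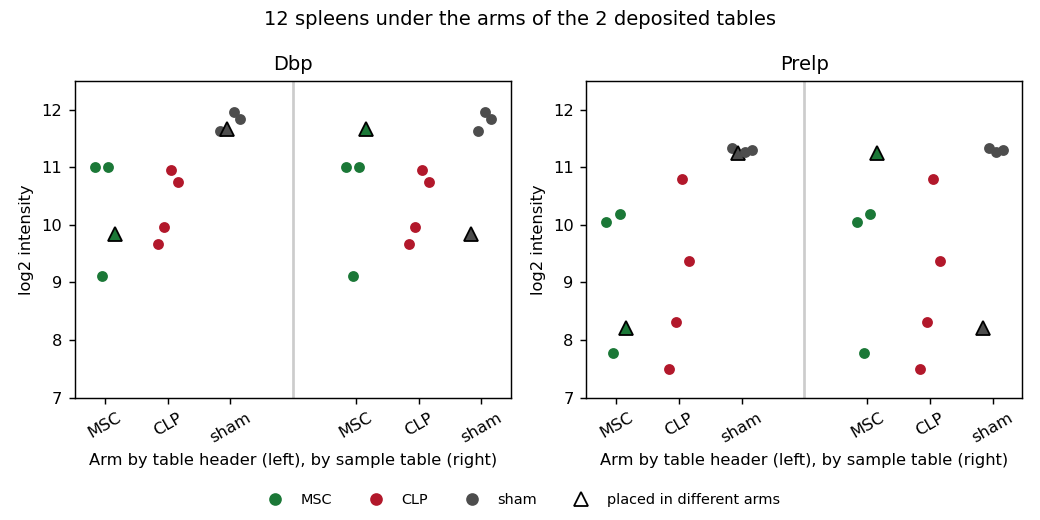
Log2 intensity of Dbp and Prelp (vertical axes) in 12 spleens, grouped into MSC, CLP and sham by the table header on the left of each panel and by the sample table on the right. Triangles are the 2 spleens placed in different arms, at 9.84 and 11.67 for Dbp.

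Dbp was also set beside the other clock genes, from a list of 23 genes of which 20 have a probe, read from the sample table and with the brightest probe per gene. With Dbp left out, 14 of the list were tested in liver. In MSC against sham livers 3 of the 14 rose and 4 fell, where 9.51% of all probes rose and 8.2% fell. The PAR bZIP relative Tef fell by 1.49 in MSC livers, at 8.29 ± 0.60 in MSC and 9.78 ± 0.28 in sham livers (SD, n = 5 each, adjusted p = 0.00207 by limma). The other relative, Hlf, was dim and differed by 0.03 (adjusted p = 0.942).

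Arntl, the partner of Clock in switching on Dbp, rose by 1.85 in MSC livers (adjusted p = 0.000142 by limma), at 8.33 ± 0.49 in MSC and 6.48 ± 0.34 in sham livers (SD, n = 5 each). Clock itself rose by 0.91 (adjusted p = 0.00337). Ciart, a repressor of the clock, fell (-1.44, adjusted p = 0.0233), and so did the negative regulator Per2 (-0.97, adjusted p = 0.0213). The differences of the nuclear receptors Nr1d1 (-1.09, adjusted p = 0.0798) and Nr1d2 (-0.54, adjusted p = 0.155) and of Per1 (0.06, adjusted p = 0.948) did not pass. The median of the 14 was -0.26 log2, against 0.03 over all probes.

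In CLP against sham livers, 4 of the 14 clock genes rose and 4 fell, against 20.4% and 17.5% of all probes. Nr1d2 was lower there (-0.87, adjusted p = 0.0122 by limma). Tef was 1.60 log2 lower (difference -1.60, adjusted p = 0.000558 by limma) and Arntl 1.35 higher (adjusted p = 0.000816). Both injured arms thus shared a low Dbp with a low Tef and a high Arntl in liver. By limma, MSC minus CLP passed for 0 of the 14 in each of the 4 organs. Among all probes, 2.12% rose and 2.02% fell in liver, 0.00486% and 0.00972% in kidney, and 0% in lung and heart. At an unadjusted p below 0.05, 1 of the 14 was higher and 2 lower in liver, 0 and 4 in lung, 1 and 7 in kidney, and 1 and 3 in heart.

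In lung, kidney and heart the counts differed with the contrast. MSC against sham gave 0 rises and 1 fall of 14 in lung (all probes 3.87% and 4.89%), 1 and 2 in kidney (2.67% and 2.71%), and 0 and 0 in heart (1.6% and 0.687%), where 1 gene was higher at an unadjusted p below 0.05. CLP against sham gave 4 rises and 0 falls in lung (13.8% and 15%), 5 and 4 in kidney (16.9% and 17%), and 2 and 1 in heart (7.06% and 7.75%). Dbp itself was low in each of these organs. Nr1d2 fell in MSC against sham lungs (-0.60, adjusted p = 0.0309 by limma) and kidneys (-0.95, adjusted p = 0.00187), but not hearts (0.01, adjusted p = 0.992). Per3 fell in CLP against sham hearts (-1.27, adjusted p = 0.00156) and kidneys (-0.97, adjusted p = 0.0014), but not lungs (-0.48, adjusted p = 0.0756). In MSC against sham mice Per3 passed in none of these organs. Tef was lower in CLP than in sham kidneys (-0.78, adjusted p = 0.00451 by limma), and its MSC minus sham differences of -0.48 in kidney, -0.34 in lung and -0.21 in heart did not pass (adjusted p = 0.129, 0.312 and 0.699). In the 4-organ mean, 2 of 13 rose and 3 fell in MSC against sham mice (all probes 5.93% and 4.43%), and 4 rose and 3 fell in CLP against sham mice (24.6% and 19%). There Tef fell in MSC against sham mice (-0.63, adjusted p = 0.00171), at 9.03 ± 0.17 and 9.66 ± 0.19 (SD, n = 5 each).

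**Figure D5:**
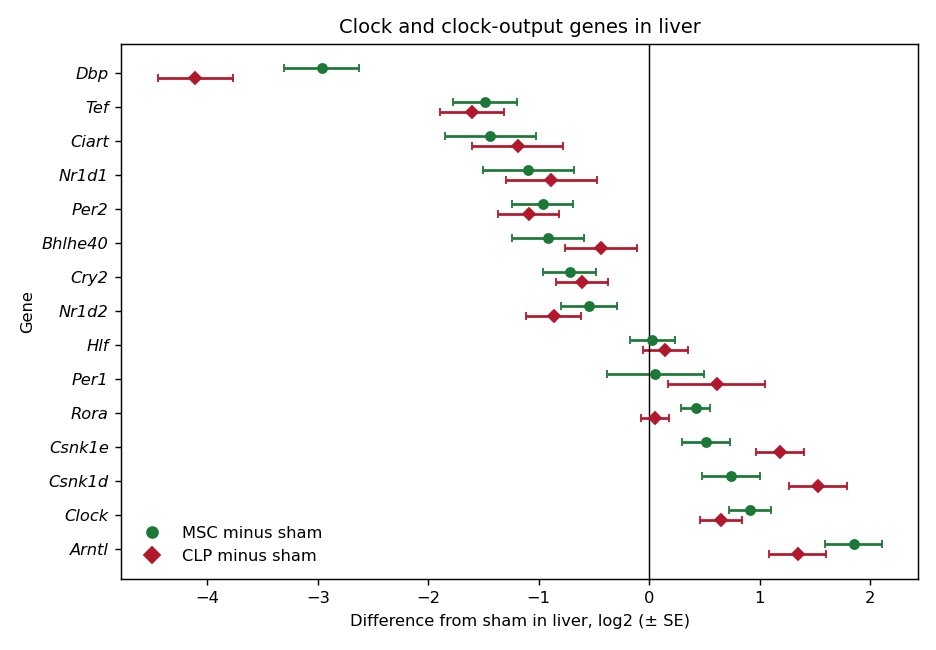
Difference from sham in liver (horizontal axis, log2, with its SE) for Dbp and 14 other clock genes, with MSC minus sham as circles above CLP minus sham as diamonds and 5 mice per arm. Dbp lies lowest at -2.97 in MSC and -4.11 in CLP mice, and Arntl highest among the MSC differences at 1.85.

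Over the 60 arrays of liver, lung, kidney and heart, with each organ's mean removed, the 3 members correlated with each other. Pearson's r was 0.68 for Dbp and Prelp, 0.79 for Dbp and Tmem25, and 0.79 for Prelp and Tmem25. These arrays share mice and arms, so r is a description. It also includes the gap between CLP and sham for which all 3 probes were chosen, so a positive r was selected for. With the mean of each organ and arm removed, r was 0.50, 0.50 and 0.63 in that order, and without mouse 107C it was 0.25, 0.29 and 0.20. The likeness within arms therefore rested largely on 1 mouse.

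Among the 6826 probes tested in all 4 organs, those most like Dbp by the same r over 60 arrays were Nrep (0.89), Selenow, a selenoprotein (0.82), and Hdac11, a histone deacetylase (0.82). This r includes the gap between CLP and sham for which Dbp was chosen, and with the mean of each organ and arm removed it was 0.48, 0.39 and 0.35 for these probes. Nrep averaged 7.22 in MSC, 5.68 in CLP and 9.93 in sham livers. Those most like Prelp were a probe with no symbol, ILMN_1232391 (0.92), Cavin2, a protein of caveolae (0.91), and Cdk5, a protein kinase (0.91). Within arms these 3 had r of 0.83, 0.81 and 0.80 with Prelp. Mouse 107C is among the arrays here and for Dbp. Cavin2 averaged 12.91 in MSC, 11.94 in CLP and 13.69 in sham lungs. Those most like Tmem25 were Aamdc (0.95), Tle5, a transcriptional corepressor (0.93), and Fmo1, a flavin monooxygenase (0.93). Within arms these 3 had r of 0.89, 0.86 and 0.89 with Tmem25, and mouse 107C is among the arrays. Fmo1 averaged 9.36 in MSC, 7.05 in CLP and 10.59 in sham livers. The order changed over the 16817 probes tested in all 4 organs by the second table. Nrep again came first for Dbp, then Akr7a5 and Nme3 (0.83 each). ILMN_1232391 again came first for Prelp, then Tmem260 and Zhx1 (0.92 each). Tmem25 was not among the probes tested there.

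Tmem25 has other probes on the array, ILMN_2506076 and ILMN_2506077, while Dbp and Prelp have 1 each. In the sample table ILMN_2506076 averaged 5.42 in MSC, 5.41 in CLP and 6.34 in sham livers, and ILMN_2506077 averaged 5.56, 5.80 and 6.59 in the same order. Both were dim and both read highest in sham. In kidney they averaged 5.87 and 5.83 in MSC, 5.55 and 5.69 in CLP, and 6.35 and 6.67 in sham mice. The MSC mean of either probe lay closer to CLP than to sham in both organs, whereas ILMN_2789294 placed it near the middle.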

How the data were processed

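Total RNA of 72 mouse organs was hybridised as biotinylated cRNA to Illumina arrays, per the labels' protocols. The deposited values lie between 0.01 and 16.03 and were read as log2 intensities; that scale, and quantile normalization done apart in the 12 spleen and the 60 other arrays, were inferred from the values, and the software is not given in the sources used here. No detection p-values were used. Only the 22504 of 45255 complete rows (49.7%) whose columns follow the header (tolerance 0.01 log2) were tested; in 22751 rows the values stand 12 columns off. The second deposited table holds the same log2 values shifted by a constant per probe that differs between the 12 spleen and the 60 other arrays. It served as an alternative and for the clock and marker lists. Of the 72 columns, 71 matched a sample and 1 only its group. Gene symbols came from GEO's platform annotation (1 symbol for 34873 complete rows).

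Differences were fitted with limma 3.58.1 in R 4.3.3 over all probes tested and all 3 arms of an organ, with Benjamini-Hochberg adjustment and a threshold of 0.05. Organs of 1 mouse share its number, and their deviations correlated at 0.13 to 0.28 on average. The mouse was therefore a block in tests between organs, entered as a fixed term of the model. The consensus correlation of 0.202 belongs to an alternative fit of the mean across organs, in which the mouse was a replicate block. Where a mouse was left out, the filter was applied again. Scripts were tested on simulated data. Genes named are the 3 members, other probes of the same genes, the 3 probes most like each, and clock genes. The members and lists were chosen with earlier results of these data known. The labels and headers name no chip or scan batch. The number of arrays limits the precision. Alternatives were another scaling, no filter, 2 arms alone, array weights, trend and robust moderation, the second table, blocks, and leaving out arrays.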

Additional observations from a re-analysis of the deposited data

Results flagged for a closer look

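Of 54 groups of 4 or 5 values of the 3 probes, 2 held a value far from the others by Dixon's test, which chance does in about 1 in 20 groups. Both belong to CLP mouse 107C: Tmem25 at 10.14 in liver, where the other 4 CLP livers read 4.38 to 5.60, and Tmem25 at 8.52 in the mean of 4 organs, where the others read 6.00 to 6.51. The MSC minus CLP difference of Dbp differed between liver, lung, kidney and heart by the limma interaction test (F = 7.17, adjusted p = 0.0165).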

How the results depend on the processing

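Results below are log2 differences unless named F, with adjusted p by limma in brackets. Scaling by the 75th percentile changed none of 72 results. With no filter, calls were lost for Dbp MSC minus sham in spleen (-1.54, 0.0628), Prelp MSC minus CLP in liver (1.35, 0.0755) and the 4-organ mean (1.04, 0.0697), Tmem25 MSC minus sham in liver (-2.42, 0.0611) and the mean (-1.19, 0.0598), and Tmem25 MSC minus CLP in the mean (1.26, 0.075); more probes enter that adjustment. Trend and robust moderation ended Tmem25 MSC minus sham in liver (-2.42, 0.0502).

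With only the 2 arms compared, Prelp MSC minus CLP was lost in liver (1.35, 0.119) and the mean (1.04, 0.104), as was Tmem25 in the mean (1.26, 0.104). Against sham that fit added Prelp in spleen (-2.23, 0.0319), lung (-0.612, 0.00727), kidney (-0.695, 0.033) and the mean (-0.488, 0.0103), and Tmem25 in kidney (-1.26, 0.0208).

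Array weights added MSC minus CLP for Dbp in liver (1.41, 0.00327), Prelp in lung (0.877, 0.00811), kidney (1.29, 0.00251) and heart (0.867, 0.0327), and Tmem25 in liver (3.18, 0.000916), kidney (1.52, 0.00513) and heart (1.03, 0.0177). They added MSC minus sham for Prelp in spleen (-1.39, 0.0187), lung (-0.624, 0.00886), kidney (-0.751, 0.0175) and the mean (-0.484, 0.015), and Tmem25 in kidney (-1.2, 0.00763) and heart (-1.14, 0.00117). They reversed Dbp MSC minus CLP, which passed no test, in spleen (0.596) and lung (0.104). In spleen they also gave -0.896 (0.0171) for Dbp MSC minus sham and 1.13 (0.183) for Prelp MSC minus CLP, beside -1.54 and 0.0609 without weights.

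The second table gave 59 of the 72 results. Tmem25 is shifted there by -1.325 outside the spleen and averaged 5.15 in MSC, 4.69 in CLP and 5.43 in sham lungs. It missed the filter in lung, so that table gave no Tmem25 result for lung, the 4-organ mean, F or pairs of organs. By the second table Dbp in spleen gave -0.618 for MSC minus sham (0.997), -0.987 for CLP minus sham and a reversed 0.369 for MSC minus CLP. Without the 2 spleens in doubt, chosen after seeing the data, it gave -1.44 (0.196) for MSC minus sham and a reversed 0.0439 for MSC minus CLP. Another setting left out 4 hearts high in spleen genes, those of 78S, 107C, 37C and 61M. For the mean it left out all 4 organs of these mice. MSC minus CLP in heart then passed for Prelp (1.05, 0.0288) and Tmem25 (1.08, 0.0201). MSC minus sham passed for Tmem25 in heart (-1.05, 0.0191) and Prelp in the mean (-0.574, 0.047), as did the Tmem25 interaction (F = 4.76, 0.0427). This setting also removes CLP mouse 107C, without which alone all of these but Tmem25 against sham in heart passed.

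With the mouse as a replicate block, Prelp MSC minus sham passed in the 4-organ mean (-0.488, 0.0429); this pairing and the spleen label set as a block changed no other call. With no replicate block, the Dbp interaction (F = 4.37, 0.106) and the Dbp liver minus lung difference (-0.458, 0.0668) were lost.

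Leaving out 1 array or mouse at a time gave these ranges. MSC minus CLP in liver spanned 0.959 to 1.47 for Dbp, 1.09 to 1.74 for Prelp and 1.97 to 3.41 for Tmem25. In lung it spanned -0.33 to 0.0396 for Dbp, reversing without 107C or 16M, 0.67 to 1.07 for Prelp and 0.286 to 0.584 for Tmem25. In kidney it spanned -0.417 to -0.109 for Dbp, 0.876 to 1.45 for Prelp and 0.9 to 1.68 for Tmem25, and in heart 0.225 to 0.642, 0.581 to 1.11 and 0.93 to 1.17 in the same order. In the mean it spanned 0.18 to 0.476 for Dbp, 0.804 to 1.34 for Prelp and 1.08 to 1.71 for Tmem25. In spleen it changed sign, from -0.346 to 0.287 for Dbp and from -0.436 to 0.658 for Prelp. MSC minus sham in spleen spanned -1.79 to -1.16 for Dbp and -2.61 to -1.81 for Prelp. For Prelp it spanned -0.699 to -0.534 in lung, -0.824 to -0.509 in kidney and -0.566 to -0.381 in the mean. For Tmem25 it spanned -2.64 to -2.07 in liver, -1.5 to -0.966 in kidney, -1.08 to -0.699 in heart and -1.33 to -1.06 in the mean. F spanned 4.83 to 9.33 for Dbp, 1.44 to 4.13 for Prelp and 1.81 to 16.5 for Tmem25. For Dbp in sham mice, liver minus lung spanned -0.581 to -0.294, liver minus kidney 0.0738 to 0.361, lung minus heart 0.273 to 0.358 and kidney minus heart -0.382 to -0.283. The cause of these changes was not tested. The counts that follow span all alternatives, not only those that leave out an array or mouse. The alternatives test unlike numbers of probes, in liver 20909 by the second table against 9012 in the main fit. Counts of probes called moved widely, for MSC minus CLP in liver from 0 to 2745 around 537, in kidney from 1 to 3049 around 2 and in the mean from 0 to 3001 around 869, and for MSC minus sham in liver from 1314 to 3703 around 1833, in lung from 569 to 1755 around 791, in kidney from 264 to 1689 around 577, in heart from 109 to 1346 around 240 and in spleen from 0 to 2207 around 832. CLP minus sham in spleen ranged from 0 to 3307 around 1492.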
